A study of Drosophila melanogaster with 6 samples.

Results

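The genes described here are 10 components of the Drosophila JAK-STAT pathway, picked by symbol for their place in the pathway. They were chosen with earlier results of these data known. They are the cytokine genes upd1, upd2 and upd3, the receptor gene dome, the related receptor gene et, the kinase gene hop, the transcription factor gene Stat92E, and the inhibitor genes Socs36E, Ptp61F and Su(var)2-10. All 10 had a row among the 17558 genes of the deposited table, matched by FlyBase identifier through the dm6 annotation.

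In this pathway secreted Unpaired proteins bind the receptor Domeless, the receptor-bound Janus kinase Hopscotch phosphorylates it, and the transcription factor Stat92E is phosphorylated in turn and enters the nucleus. The cytokine Upd3 is known to be made by blood cells (haemocytes) after septic injury and to act on the fat body, where Stat92E drives stress genes such as the Turandots. Socs36E is both a target of Stat92E and an inhibitor of the signal, and its transcript is widely used as a readout of the pathway.

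RNA was sequenced from adult male flies taken 12 h after they had been injected with the Gram-positive bacterium Micrococcus luteus. The 3 control libraries came from flies labelled Gal80ts; Tub-Gal4/P{CaryP}attP40, and the 3 overexpressing libraries from flies labelled Gal80ts; Tub> NANPI, where NANPI is the series' name for the long noncoding RNA CR33942. Both groups thus carried a temperature-sensitive repressor of Gal4 (Gal80ts) and a driver under the tubulin promoter, which is active in most cells, and both were infected. No uninjected flies were analysed here, so no value below measures a response to infection. Strain and overexpression differ together between the groups and cannot be told apart. The labels name no tissue and give no sign that the libraries came from separate pools of flies, so every p-value below refers to the variation among these 6 libraries, part or all of which may be technical.

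Reads recovered from the values numbered 17032191 to 19797136 per library. CR33942 itself stood at 18.7 to 19.5 FPKM (fragments per kilobase of gene, scaled by 1 factor per library) in the controls and at 553 to 589 FPKM in the overexpressing libraries. Overexpressing replicate 2 stood apart on the second principal component, at 17.1 against -8.12 and -6.63 for its group. It was also the only library with reads of the eggshell gene Cp36, 59 of them. Eggshell transcripts as such were not confined to it. Outside the marker list, Cp15 averaged 3.60 FPKM in the controls and 3.32 FPKM in the overexpressing libraries. For Cp18 the means were 3.04 and 2.07 FPKM. The female markers Yp1 and Yp2 were at 0.246 FPKM or less in every library. Yp3, a further yolk protein gene on the female list, was present in every library. It stood at 31.3 to 33.4 FPKM in the controls and 7.79 to 10.7 FPKM in the overexpressing libraries. Limma called it lower there (log2 change -1.75, adjusted p = 0.000441). Markers of male flies (lncRNA:roX1, 72.5 to 80.8 FPKM) were present, as were some or all of those listed for testis, accessory gland, muscle, head, gut, fat body and haemocytes. Lsp2 of the fat body list and bam of the testis list did not reach 1 FPKM in at least 3 libraries. Results that rest on overexpressing replicate 2 are given with and without it.

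Of the 10 genes 6 lie on the X chromosome. The cytokine genes stand within 68.6 kb of each other (dm6): upd2 from 18240654 to 18243284 on the minus strand, upd3 from 18277233 to 18284596 on the plus strand and upd1 from 18305354 to 18309291 on the minus strand. The receptor genes are direct neighbours on the minus strand, et from 19672312 to 19675891 and dome from 19676061 to 19683518, with 169 bases between them. The gene hop lies from 11360930 to 11368098 on the X. The remaining genes are autosomal: Stat92E on 3R (20535323 to 20552311, minus strand), Socs36E on 2L (18138675 to 18152417, minus strand), Ptp61F on 3L (1342493 to 1475257, minus strand) and Su(var)2-10 on 2R (9116122 to 9122000, plus strand). Among them et was the single gene whose exons overlapped those of another annotated gene, with 42 of its exon bases (1.74%) shared with Zw on the opposite strand. The sources used here do not say whether reads were counted by strand.

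The transcription factor was by far the most abundant transcript of the pathway and the cytokines were the rarest. Per length, Stat92E averaged 40.7 ± 1.13 FPKM in the control libraries (SD, n = 3), and its mean over the 6 libraries was higher than that of 81.5% of all tested genes. The receptor, kinase and inhibitor genes came next, between the means of hop (6.94 ± 0.347 FPKM) and dome (13.9 ± 1.12 FPKM; SD, n = 3 each). The control levels ran, from high to low, in the order Stat92E, dome, Su(var)2-10, Ptp61F, Socs36E, et, hop, upd1, upd3 and upd2. In that order the library ranges overlapped between Socs36E and et, between et and hop and between upd3 and upd2, and were separate for the other neighbours. In the overexpressing libraries the ranges of dome, Su(var)2-10, Socs36E and Ptp61F ran into one another, and Socs36E spread from 7.53 to 14.9 FPKM.

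**Figure D1:**
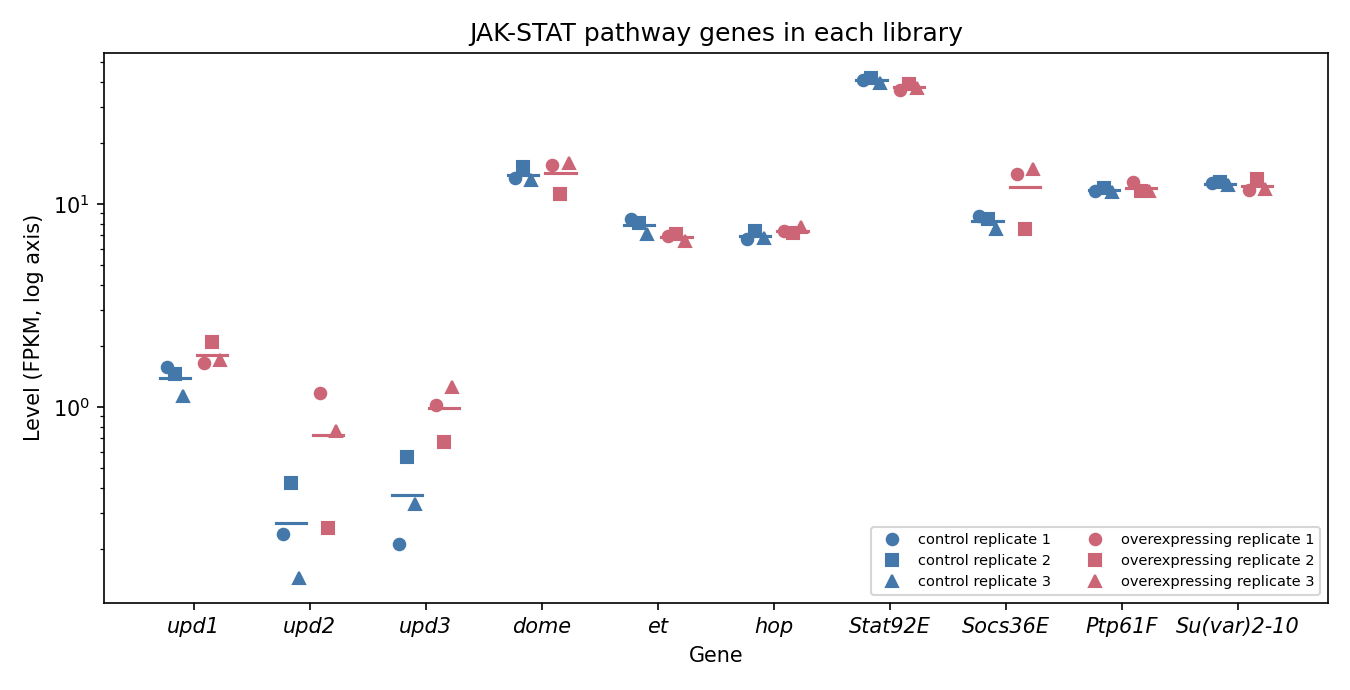
Level of each of the 10 genes in each library, in FPKM on a log axis, with control libraries in blue, overexpressing libraries in red, a separate symbol for each replicate number and a bar at each group mean. Stat92E lies highest, upd2 and upd3 lie lowest, and overexpressing replicate 2 (red squares) sits well below the other overexpressing libraries for upd2, Socs36E and dome.

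With all 6 libraries limma called none of the 8 genes it tested, at a Benjamini-Hochberg adjusted p under 0.05, where it called 2.22% of all 12326 tested genes. No gene of the 8 had an unadjusted p under 0.05 either, beside 1931 of all 12326 tested genes. Voom on recovered reads called 0 of the 8, beside 460 of the same 12326 genes. The 4 tested genes on the X were upd1, dome, et and hop, and limma called 4.88% of all tested X-linked genes and 1.77% of autosomal genes. The groups did not overlap for 2 of the 8, upd1 and Stat92E, against 20.7% of all tested genes. The median log2 change of the 8 was 0.024, beside 0.0023 over all tested genes. A gene was tested when it reached 1 FPKM in at least 3 libraries, which upd2 and upd3 did not.

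The cytokine genes had higher mean levels in the overexpressing flies, on few reads. The gene upd1, whose product is the founding ligand of the family, stood at 1.58, 1.45 and 1.13 FPKM in the controls and at 1.64, 2.09 and 1.70 FPKM in the overexpressing libraries. Every overexpressing library was above every control library, by a narrow margin for replicate 1. The mean difference did not pass (log2 change 0.24 ± 0.12 SE, 95% interval -0.055 to 0.53, adjusted p = 0.420 by limma). Its reads came to 244 over the controls and 330 over the overexpressing libraries.

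The gene upd3 encodes the ligand linked to wounding and infection. It stood at 0.211, 0.565 and 0.334 FPKM in the controls and at 1.02, 0.673 and 1.26 FPKM in the overexpressing libraries, so the groups did not overlap. Those values rest on 9, 24 and 13 control reads and on 46, 30 and 50 overexpressing reads. The ratio of reads at equal depth was 2.63, with an exact 95% binomial interval of 1.86 to 3.77 that covers counting error only. In a voom fit that required at least 10 reads in at least 3 libraries, chosen after the data were seen, its log2 change was 1.43 ± 0.40 (SE) and did not pass (adjusted p = 0.0759, unadjusted p = 0.00356). That fit tested all 10 genes and called 0 of them, beside 3.59% of all genes it tested.

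The gene upd2 encodes a ligand known from the fat body as a nutrient signal. It stood at 0.236, 0.422 and 0.144 FPKM in the controls, from 9, 16 and 5 reads. In the overexpressing libraries it stood at 1.17, 0.252 and 0.763 FPKM, from 47, 10 and 27 reads. Replicates 1 and 3 lay above every control library and replicate 2 lay among them, within counting error of control replicate 1. The ratio of reads was 2.69 (exact 95% binomial interval 1.75 to 4.23, counting error only), and the log2 change of 1.25 ± 0.61 (SE) in the same voom fit did not pass (adjusted p = 0.353). In the limma fit with no filter the log2 change was 0.42 ± 0.20 (SE) and did not pass either (adjusted p = 0.438).

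Summed over upd1, upd2 and upd3, the level was 2.03 ± 0.415 FPKM in the controls (SD, n = 3) and 3.52 ± 0.444 FPKM with overexpression (SD, n = 3). The mean share of upd1 in that sum was 69.3% in the controls and 52.6% in the overexpressing libraries. Markers of many tissues were present, so a change in the number of cells of a type and a change in RNA per cell cannot be told apart. These levels thus do not say which cells hold the transcripts. The haemocyte markers Hml, NimC1, eater, Sr-CI, Pxn and srp summed to 62.1 to 63.7 FPKM in the controls and 54.5 to 66.4 FPKM in the overexpressing libraries. Of these 6 limma called NimC1 lower and the others not. The 5 gut markers summed to 3497 to 3977 FPKM in the controls and 4001 to 4629 FPKM in the overexpressing libraries. None was called by limma, and 1, betaTry, had an unadjusted p under 0.05. The sum was mostly alphaTry (means 2918 and 3065 FPKM) and betaTry (774 and 1158 FPKM). The log2 changes of Npc1b, lab and Mur29B were -0.24, -0.036 and 0.048, so the sum does not speak for all gut markers. The part of either cell type in the cytokine levels was not tested.

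Both receptor genes stayed near their control level on average. The signalling receptor gene dome stood at 13.4, 15.2 and 13.2 FPKM in the controls and at 15.6, 11.2 and 15.9 FPKM in the overexpressing libraries. Replicates 1 and 3 were above all controls and replicate 2 was below all of them, so the means nearly coincided (log2 change 0.015 ± 0.13 SE, 95% interval -0.29 to 0.32, adjusted p = 0.973 by limma). The gene et (eye transformer) encodes a shorter related receptor that dampens the signal. It stood at 8.45, 8.08 and 7.10 FPKM in the controls and at 6.97, 7.11 and 6.54 FPKM in the overexpressing libraries. The groups overlapped narrowly, between control replicate 3 and overexpressing replicate 2, and the log2 change of -0.17 ± 0.080 (SE, 95% interval -0.36 to 0.014) did not pass (adjusted p = 0.361 by limma). Its partner Zw, which shares 42 exon bases, stood at 34.5 to 35.8 FPKM in controls and 26.3 to 31.3 FPKM in overexpressing libraries, and its part in the et values was not tested.

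Within a library, dome was 1.59, 1.88 and 1.85 times the level of et in the controls and 2.23, 1.58 and 2.44 times in the overexpressing libraries. The highest ratios were those of overexpressing replicates 1 and 3, and replicate 2 had the lowest of all 6. The groups overlapped, with a difference of 0.21 on the log2 scale (exact two-sided permutation p = 0.4, where 0.1 is the smallest that 3 against 3 libraries allow).

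The kinase gene hop, which encodes the only Janus kinase of the fly, varied little between libraries. Its levels were 6.71, 7.34 and 6.77 FPKM in the controls and 7.33, 7.17 and 7.68 FPKM in the overexpressing libraries. The groups overlapped, and the log2 change was 0.080 ± 0.068 (SE, 95% interval -0.077 to 0.24, adjusted p = 0.642 by limma). Stat92E stood at 40.9, 41.8 and 39.5 FPKM in the controls and at 36.5, 39.1 and 37.4 FPKM in the overexpressing libraries. Every overexpressing library was below every control library, with overexpressing replicate 2 and control replicate 3 close together. With 11873 control and 11432 overexpressing reads it was the best measured gene of the pathway, and its mean was 0.925 of the control mean. That log2 change of -0.11 ± 0.053 (SE, 95% interval -0.23 to 0.013) did not pass (adjusted p = 0.374 by limma).

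Among the inhibitor genes Socs36E stood out for its spread within the overexpressing group. It encodes a suppressor of cytokine signalling protein that blocks the receptor and kinase and is itself switched on by Stat92E. Its control libraries held 8.71, 8.44 and 7.51 FPKM, from 587, 566 and 461 reads. The overexpressing libraries held 13.98, 7.53 and 14.9 FPKM, from 993, 529 and 935 reads. Replicates 1 and 3 lay far above the controls and replicate 2 lay at the bottom of the control range. The gap within the group was larger than counting error, since the exact Poisson 95% interval of replicate 2 was 6.90 to 8.20 FPKM and those of replicates 1 and 3 began at 13.1 and 13.99 FPKM. The mean ratio was 1.48 and the log2 change 0.46 ± 0.22 (SE, 95% interval -0.049 to 0.97), which did not pass (adjusted p = 0.370 by limma). Voom on recovered reads gave 0.49 ± 0.21 (SE, 95% interval 0.028 to 0.96, unadjusted p = 0.0397). That interval lay above 0, but the gene did not pass (adjusted p = 0.275). The voom fit with the 10-read requirement gave an unadjusted p of 0.0362 and an adjusted p of 0.267.

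The other inhibitor genes were nearly level between the groups. Ptp61F encodes a tyrosine phosphatase that acts on the kinase and on Stat92E, and stood at 11.6, 12.0 and 11.4 FPKM in the controls and at 12.8, 11.5 and 11.5 FPKM in the overexpressing libraries. The groups overlapped (log2 change 0.033 ± 0.064 SE, 95% interval -0.12 to 0.18, adjusted p = 0.867 by limma). Su(var)2-10 encodes the fly PIAS protein, a SUMO ligase that restrains Stat92E. It stood at 12.6, 12.8 and 12.4 FPKM in the controls and at 11.8, 13.3 and 11.8 FPKM in the overexpressing libraries, and here replicate 2 was the highest of all 6. The log2 change was -0.034 ± 0.066 (SE, 95% interval -0.19 to 0.12, adjusted p = 0.865 by limma).

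Socs36E stood at 0.213, 0.202 and 0.190 times the level of Stat92E in the control libraries. In the overexpressing libraries the ratio was 0.383, 0.192 and 0.399. Replicates 1 and 3 were thus well above the controls and replicate 2 was within their range, with a mean difference of 0.62 on the log2 scale (exact two-sided permutation p = 0.3, smallest possible 0.1).

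Leaving out overexpressing replicate 2 turned Socs36E into a call. Without that library its log2 change was 0.75 ± 0.08 (SE, 95% interval 0.55 to 0.94, adjusted p = 0.00689 by limma), and 1 of the 8 tested genes passed, beside 3.72% of all tested genes. In the same limma fit the log2 change of Stat92E was -0.14 ± 0.055 (SE, 95% interval -0.27 to -0.0051, adjusted p = 0.276). That of dome was 0.17 ± 0.079 (SE, adjusted p = 0.347), and neither gene passed. In each of the 5 fits that left out another library Socs36E did not pass. The voom fit with the 10-read requirement and without the same library called 3 of the 10 genes, beside 6.42% of all genes it tested. These were Socs36E (log2 change 0.81 ± 0.08 SE, adjusted p = 2.19e-05), upd2 (1.90 ± 0.44, adjusted p = 0.0151) and upd3 (1.68 ± 0.37, adjusted p = 0.0117), all higher. The receptor gene dome did not pass there (0.18 ± 0.072, adjusted p = 0.199). These fits set 2 overexpressing libraries against 3 controls, and leaving replicate 2 out of the voom fit was chosen after the data were seen. The library left out was the lowest of its group for Socs36E, upd2 and upd3, so leaving it out raises their changes by construction. Among the controls only replicate 2, with 16 reads, reached 10 reads of upd2. The gene upd2 thus entered that voom fit through overexpressing replicates 1 and 3 (47 and 27 reads). The 3 calls are a description.

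**Figure D2:**
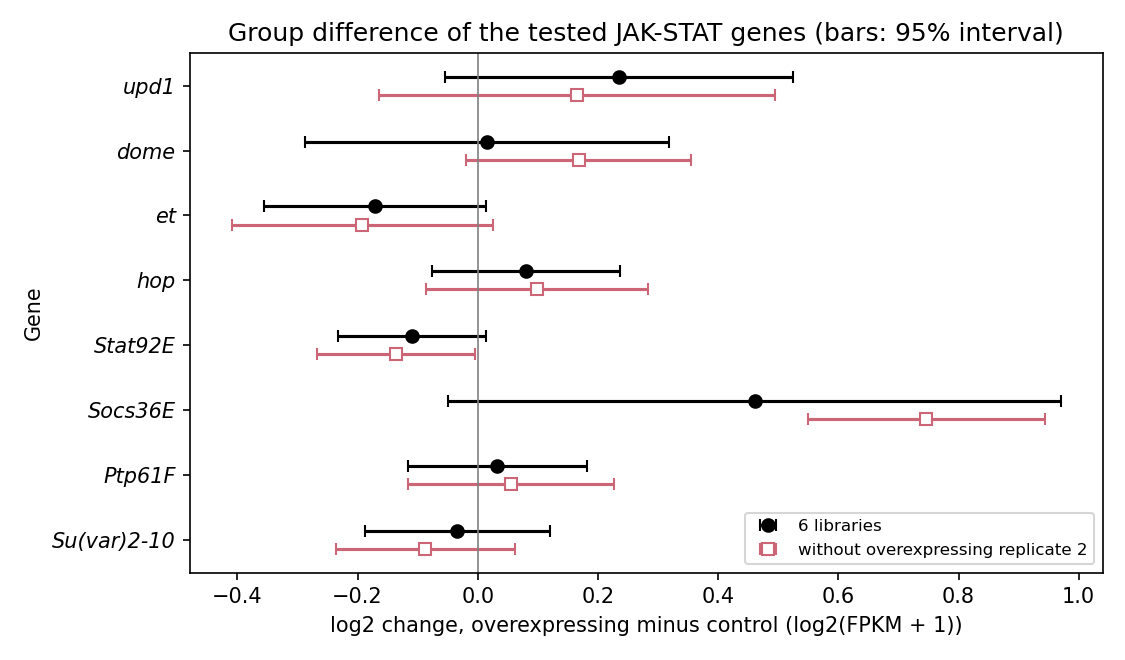
Log2 change of the 8 tested genes, overexpressing minus control on the log2(FPKM + 1) scale, with 95% intervals, for all 6 libraries (black) and without overexpressing replicate 2 (red, open). Among the 6-library intervals all include 0, and that of Socs36E moves from -0.049 to 0.97 up to 0.55 to 0.94 when the library is left out. The interval of Stat92E then also excludes 0, on the other side (-0.27 to -0.0051).

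Replicate 2 differed from its group in opposite ways for different genes of the pathway. It was the lowest of the 3 overexpressing libraries for upd2, upd3, dome, hop and Socs36E, and the highest for upd1, et, Stat92E and Su(var)2-10. Over all tested genes it was the lowest in 37.5% and the highest in 36.6%, so such positions are common in this library. The size of the gap was less common: on the log2(FPKM + 1) scale Socs36E lay 0.86 below the level of the mean of replicates 1 and 3, a value more negative than that of all but 0.552% of tested genes, and dome lay 0.46 below it, among the lowest 2.73%.

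The wider pathway was read through 12 further regulators and 12 known targets, lists also chosen with earlier results of these data known. None of the regulators, all tested, passed by limma in either direction, beside 2.22% of all tested genes. A log2 change above 0 was found for 6 and below 0 for 6, beside 50.69% of all tested genes above 0. The median of the regulators was -0.011, beside 0.0023 over all tested genes. The most abundant were HP1a (named here by its RefSeq synonym), which encodes a heterochromatin protein known to bind unphosphorylated Stat92E, and lwr, the SUMO-conjugating enzyme gene. HP1a averaged 56.5 ± 4.37 FPKM in the controls and 55.5 ± 4.46 FPKM with overexpression (SD, n = 3; adjusted p = 0.923 by limma). For lwr the means were 33.7 ± 1.98 and 31.5 ± 3.72 FPKM (SD, n = 3; adjusted p = 0.688 by limma). The suppressor genes related to Socs36E were chosen after their values were seen. Socs16D stood at 14.8 ± 1.05 and 15.1 ± 0.469 FPKM and Socs44A at 10.7 ± 1.13 and 10.7 ± 1.19 FPKM, neither past the threshold (adjusted p = 0.898 and 0.999 by limma).

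Of the 12 targets 9 were tested, and limma called 1 higher and 0 lower, beside 2.22% of all tested genes called in either direction. The log2 change was above 0 for 7 of the 9 and below 0 for 2, beside 50.69% of all tested genes above 0. The median was 0.38, beside 0.0023 over all tested genes. Of the 12 targets 7 belong to the Turandot family, so the tally and median are a description and not a count of independent genes. Among the genes above 0, TotA, TotC, TotM and TotX were all highest in overexpressing replicate 2. The called gene was TotM, which encodes a Turandot stress peptide. It stood at 11.2, 9.09 and 7.03 FPKM in the controls and at 37.7, 125 and 30.3 FPKM in the overexpressing libraries, so the groups were well apart and replicate 2 was highest (log2 change 2.42 ± 0.47 SE, adjusted p = 0.0485 by limma). Without overexpressing replicate 2 the log2 change was smaller and its error smaller still (1.80 ± 0.18 SE, adjusted p = 0.00408). In the 5 fits without another library it was 2.27 to 2.81 and did not pass, with adjusted p from 0.0533 to 0.157. With all 6 libraries the value lay near the threshold throughout. It passed with a pseudocount of 0.1, TPM scaling and the 10-read voom fit (adjusted p = 0.0469, 0.0474 and 0.0457), and did not pass with no filter, voom at the same filter and the replicate block (0.0853, 0.0518 and 0.0540), at log2 changes of 2.42 to 2.55 in all 6.

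The most abundant targets were Listericin and vir-1. Listericin encodes an antibacterial protein whose induction needs Stat92E, and stood at 645, 674 and 668 FPKM in the controls and at 998, 656 and 989 FPKM in the overexpressing libraries. As for Socs36E, replicates 1 and 3 were above the controls and replicate 2 was among them. Its log2 change of 0.38 ± 0.15 (SE) did not pass with 6 libraries (adjusted p = 0.280 by limma) and was 0.58 without overexpressing replicate 2 (adjusted p = 0.00313). The fit without that library called 3.72% of all tested genes. Replicate 2 was the lowest of its group for Listericin, so leaving it out raises the change by construction. The gene vir-1, a marker of the pathway in virus infection, stood at 364, 389 and 373 FPKM in the controls and at 351, 329 and 359 FPKM in the overexpressing libraries. All 3 overexpressing libraries were below the controls, and the log2 change of -0.12 ± 0.06 (SE) did not pass (adjusted p = 0.376 by limma).

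In replicate 2, where Socs36E was low, several Turandot genes were high. Of the 7 Turandot genes on the list, 4 had their highest level of all 6 libraries there. Besides TotM these were TotA, TotC and TotX, chosen after their values were seen. TotA held 230, 165 and 90.3 FPKM in the controls and 294, 950 and 162 FPKM in the overexpressing libraries. TotC held 78.5, 26.1 and 17.9 FPKM in the controls and 100.1, 375 and 36.6 FPKM in the overexpressing libraries. In both genes replicate 2 was far above the rest, replicate 1 was somewhat above the highest control and replicate 3 was within the control range. TotX held 8.81, 8.85 and 5.88 FPKM in the controls and 13.6, 32.9 and 10.2 FPKM in the overexpressing libraries, without overlap. The log2 changes of TotA, TotC and TotX were 1.24 ± 0.61, 1.71 ± 0.83 and 1.02 ± 0.37 (SE) with all 6 libraries, and none passed (adjusted p = 0.388, 0.378 and 0.244 by limma). Without overexpressing replicate 2 they were 0.53 ± 0.40, 0.84 ± 0.63 and 0.55 ± 0.18 (SE), and again none passed (adjusted p = 0.586, 0.592 and 0.189).

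The rest of the target list was low or did not pass. Tep1, which encodes a thioester-containing protein, was below the filter, at 0.801, 0.892 and 0.785 FPKM in the controls and 2.90, 2.39 and 0.875 FPKM in the overexpressing libraries. For TotB, chinmo and zfh1 the log2 changes were -0.32, 0.029 and 0.17, none past the threshold. TotF and TotZ were below the filter, with no read in 4 of the 6 libraries each. Fat body tissue, where Turandot peptides are largely made, was followed by markers of which 3 were tested, apolpp, fat-spondin and Fbp1. The marker list without FASN1, whose symbol matched no row, summed to 129 to 169 FPKM in the controls. In the overexpressing libraries the list summed to 84.3 to 120 FPKM, with the 120 in replicate 2, and limma called fat-spondin lower. The part of fat body RNA in the target levels was not tested.

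**Figure D3:**
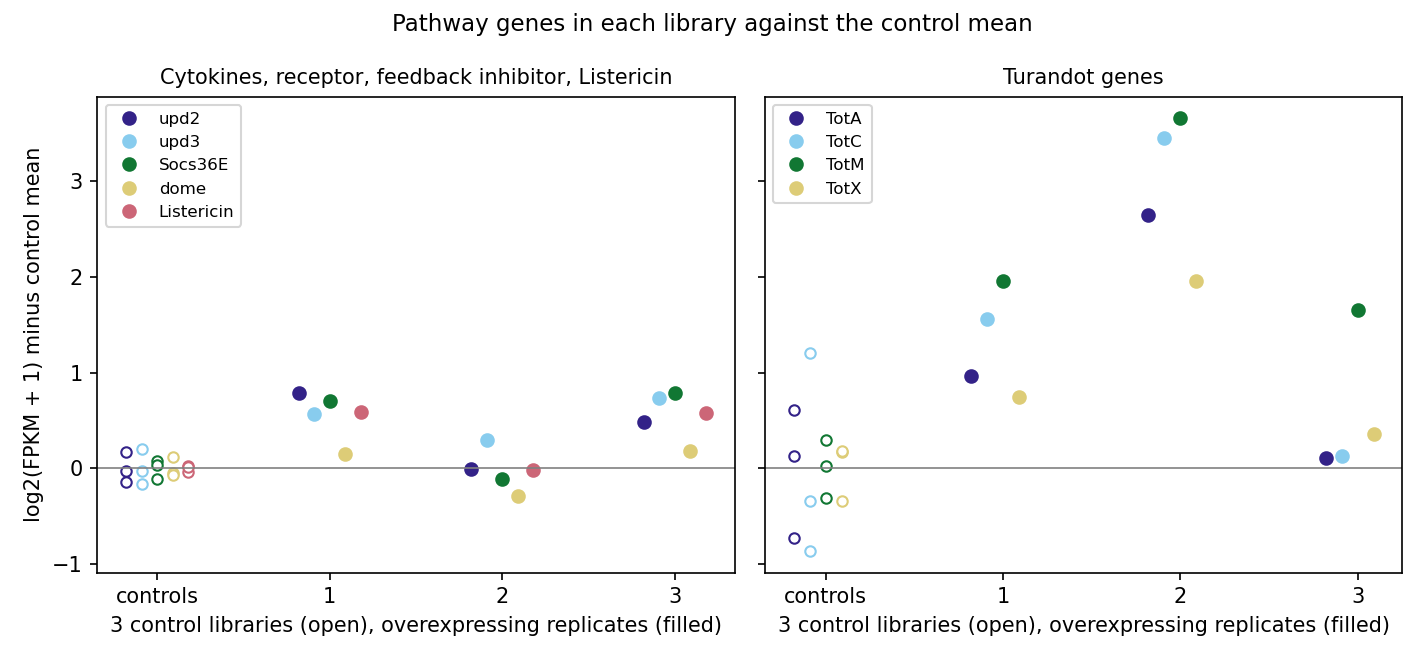
Difference of each library from the control mean on the log2(FPKM + 1) scale for upd2, upd3, Socs36E, dome and Listericin (left) and for TotA, TotC, TotM and TotX (right), with control libraries as open and overexpressing replicates as filled circles. In replicate 2 Socs36E lies at -0.11 while TotM lies at 3.66, and in replicates 1 and 3 Socs36E lies at 0.70 and 0.79.

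The genes whose pattern over the 6 libraries was most like that of Socs36E were CG31729, Pi3K92E and CD98hc, among 6739 other tested genes with a mean of at least 10 FPKM. Likeness was the Pearson coefficient on log2(FPKM + 1), which was 0.995, 0.992 and 0.988 for them and above 0.95 for 58 genes. The points share 2 groups and the split of replicate 2, so the coefficients are a description. The amplitudes were smaller than that of Socs36E. Pi3K92E held 10.1, 10.4 and 9.64 FPKM in the controls and 12.1, 9.78 and 12.3 FPKM in the overexpressing libraries, and none of the 3 passed (adjusted p = 0.696, 0.460 and 0.561 by limma).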

How the data were processed

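The values analysed were FPKM, as deposited by the authors, 1 per gene in each of 6 libraries; how they were derived from counts was not stated in the sources. HISAT2 2.0.5, featureCounts 1.5.0-p3, DESeq2 and build dm6 are named in the submitters' processing notes. The dm6 annotation gave a symbol for 17252 of 17558 identifiers.

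FPKM times exon length times 1 factor per library gave whole reads, within 0.01 of a read, in 95.97% of the 15918 genes above 0 anywhere. For the other 642 a length was solved. On a relative scale the library factors differed by -0.149% to 0.281% from size factors based on median gene ratios. They differed by -2.03% to 1.21% from read totals. Recovered reads give the counting error, and Poisson and binomial intervals cover counting error only.

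Across all genes, limma 3.58.1 (R 4.3.3; lmFit, eBayes with trend) tested log2(FPKM + 1), two-sided, for 12326 genes with at least 1 FPKM in at least 3 libraries, and p-values were adjusted by Benjamini-Hochberg (threshold 0.05). Fold changes on this scale understate those of low genes. Alternatives were a pseudocount of 0.1, no filter, scaling to equal FPKM sums (TPM), voom on recovered reads with the same library factors, the replicate block and each library left out. The edgeR test named as an alternative was not run, since the deposited unit is FPKM, and voom was the fit on recovered reads.

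The members, lists and comparisons were chosen with earlier results of these data known. Named from the further lists were called genes and the 2 most abundant of each, and the 3 genes most like Socs36E; the text marks genes picked later, with values in view.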

Additional observations from a re-analysis of the deposited data

How the results depend on the processing

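With all 6 libraries the count of called pathway genes was 0 of 8 under a pseudocount of 0.1, TPM scaling, voom on recovered reads and the replicate block, and 0 of 10 with no filter. Leaving out 1 library gave between 0 and 1, and voom with at least 10 reads and overexpressing replicate 2 left out gave 3. The count over all genes moved more, from 274 to 460 with voom, 470 with voom and the 10-read filter, 833 with that fit and overexpressing replicate 2 left out, and between 72 and 459 with 1 library left out. With the replicate block it was 110, and the deviations of same-numbered libraries correlated at -0.05, -0.18 and 0.03 over genes, so the numbers were not taken as pairs. TPM scaling moved the median of all genes from 0.0023 to 0.023.

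Directions that changed were those of values near 0. With 1 library left out dome ranged from -0.069 to 0.17, Ptp61F from -0.012 to 0.055 and HP1a from -0.087 to 0.039, and HP1a was 0.039 with the 10-read voom fit without overexpressing replicate 2. The log2 difference ranged from 0.083 to 0.40 for the ratio of dome to et and from 0.43 to 0.96 for that of Socs36E to Stat92E. The levels of upd2 and upd3 rest on 5 to 50 reads per library, which limits what their changes can show. The edgeR alternative was not run.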
